A study of Bos grunniens with 6 samples.

Results

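Metalloendopeptidases are enzymes that cut peptide bonds inside a protein chain with the help of a metal ion, usually zinc. In skin, matrix metalloproteinases (MMPs) cut collagens, laminins and other matrix proteins, ADAMs (a disintegrin and metalloproteinase) release growth factors and receptors from the cell surface, and ADAMTS enzymes (ADAMs with thrombospondin motifs) trim procollagens and proteoglycans. Most MMPs, ADAMs and ADAMTS enzymes are made as inactive precursors, are activated by other proteases and are held in check by tissue inhibitors of metalloproteinases (TIMPs). Other enzymes of this activity inactivate peptide hormones, mature proteins inside mitochondria or cut substrates within membranes. The members described here were the genes annotated with metalloendopeptidase activity in the authors' deposited table, leaving out those annotated to collagen-containing extracellular matrix, to the Wnt signaling pathway or to oxidative phosphorylation. They were 61 of 15646 genes. The annotation was carried by 70 genes, and 9 were left out by this rule. Of these, ADAMTS2 (NPI), ADAMTS5 (ADAMTS11), ADAMTS10, ADAMTS12 (UNQ1918/PRO4389), ADAM19 (FKSG34), BMP1 and MMP28 (UNQ1893/PRO4339) carried the matrix annotation and UQCRC1 and UQCRC2 that of oxidative phosphorylation. They are not counted below. An older symbol that the table uses stands in parentheses after the current one.

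The mRNA came from cultures of yak (Bos grunniens) skin cells. There were 3 cultures of dermal papilla cells (DPC), which form the mesenchymal core of the follicle bulb, and 3 of hair matrix cells (HMC), the dividing epithelium that gives rise to the hair shaft. The labels class DPC as dermal cells and HMC as epidermal cells. All 6 were of WT genotype and were isolated from skin and cultured in DMEM/F12 medium. Each culture received EGF (20 ng/mL), IGF1 (10 ng/mL), serum (10%) and antibiotics (1%). The labels call the replicates biological without naming an animal for each, so p-values measure only the spread between these samples, which may be technical.

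Expression was given in FPKM, in which fragment counts are divided by gene length and library depth. Recovered whole reads summed to 13.1 to 13.4 M (mega) per DPC library and at least 13.7 M per HMC library. The mesenchymal identity of DPC and the epithelial identity of HMC were checked with marker lists. All 8 tested markers of the dermal papilla and fibroblast list were higher in DPC, with summed levels of 13035 to 13393 FPKM in DPC and 504 to 600 FPKM in HMC. Of 9 tested markers of the epithelium and hair matrix list, 6 were higher in HMC, namely KRT5, KRT8, KRT19, CDH1, TP63 (KET) and ITGA6. MSX2 was higher in DPC, while KRT14 and HOXC13 (HOX3G) did not pass the test. The summed levels of that list were 76.0 to 98.9 FPKM in DPC and 8786 to 9195 FPKM in HMC, with KRT8 and KRT19 at 3352 and 4090 FPKM in HMC. The papilla markers ALPL and CORIN (CRN) stayed at or below 0.230 FPKM in every library, and the hair keratin KRT35 at or below 0.157 FPKM. Other papilla markers were high in DPC, with VCAN (CSPG2) at 105 FPKM in DPC, against 2.58 FPKM in HMC, and RSPO3 at 58.1 FPKM in DPC, against 0.522 FPKM in HMC. None of MSX2, HOXC13 and KRT35 was called higher in HMC, so the hair matrix name of these cultures rests on the labels.

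Genes were tested with limma on log2(FPKM + 1), with p adjusted over the 11883 genes that averaged 0.5 FPKM or more. An adjusted p under 0.05 counted as a call, and differences are DPC minus HMC. Across all tested genes 75.9% were called, with 29.7% higher in DPC and 46.2% higher in HMC. On the same log2(FPKM + 1) scale 27.1% were called with at least a 2-fold difference, 11.0% toward DPC and 16.1% toward HMC. Of the 61 members, 44 were tested and 17 were not. Of the 44 tested members 38 were called, 16 toward DPC and 22 toward HMC. The values of the groups did not overlap for 39 of the 44, with DPC above HMC for 16 and below it for 23, beside 77.9% of all tested genes (30.8% above and 47.1% below). At least a 2-fold difference was reached by 22 of the 44, 11 in each direction. Of the tested members, 11 averaged under 0.5 FPKM in 1 group and passed the filter through the other group, which favours a difference. Of these 11, 10 were called and TRABD2B was not. The other 33 members averaged at least 0.5 FPKM in both groups. Of these 33, 28 were called, 12 toward DPC and 16 toward HMC, beside 73.4% of all genes filtered in that way. At least a 2-fold difference was reached by 42.4% of these 33 members and by 20.5% of all such genes. The median log2 difference of the tested members was -0.18, beside -0.15 for all tested genes. The median of its absolute size was 1.04 for the members and 0.50 for all tested genes. In whole cultures, fewer cells of a type and less RNA per cell cannot be told apart.

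The families are given here in turn, with their counts as a description. Of 20 tested MMP, ADAM and ADAMTS members, 19 were called, 10 toward DPC and 9 toward HMC, and 80% of the 20 differed at least 2-fold. Among these 20, MMP1, MMP3, MMP12, MMP13, MMP17, MMP25, ADAMTS9 and ADAMTS20 averaged under 0.5 FPKM in 1 group, which favours a call. Of the 24 tested members of other families, 19 were called, 6 toward DPC and 13 toward HMC, and 25% of the 24 differed at least 2-fold. TLL2, CLCA2 and TRABD2B of the 24 also averaged under 0.5 FPKM in 1 group, so the 20 and the 24 are not compared on equal terms. The share called was 95% of the 20 and 79.2% of the 24, beside 75.9% of all tested genes, of which 27.1% differed at least 2-fold. The 24 thus lay near the shares of all tested genes. With the same members included, the median absolute log2 difference was 2.14 for the MMP, ADAM and ADAMTS members and 0.47 for the other families. It was 0.50 for all tested genes.

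**Figure D1:**
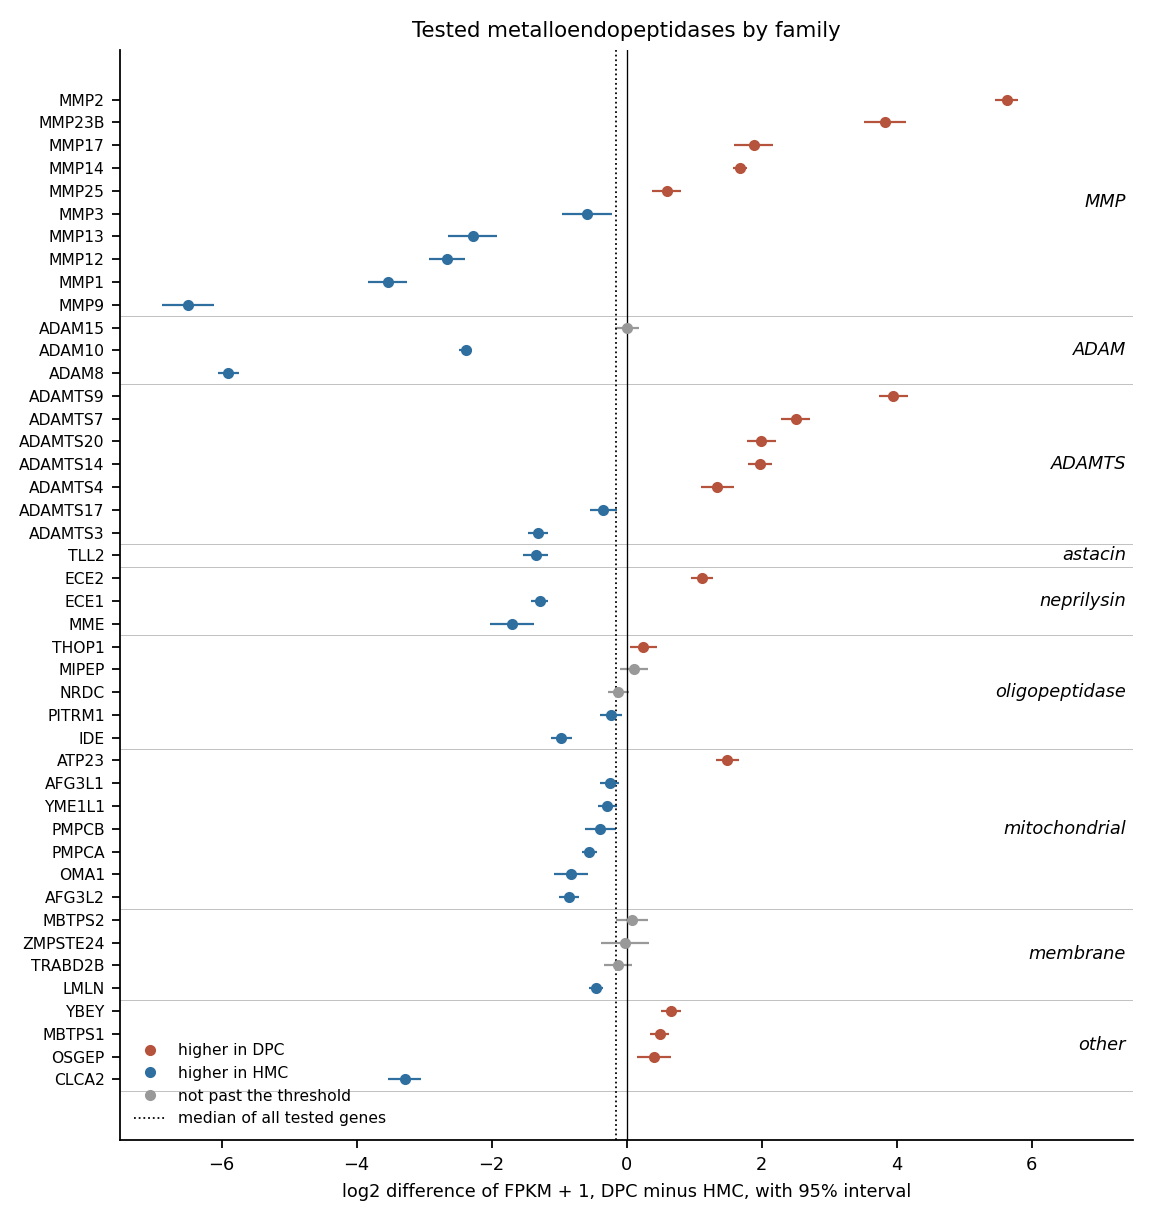
Log2 difference of FPKM + 1 (DPC minus HMC, horizontal axis) of the 44 tested metalloendopeptidases, grouped by family down the page, with 95% intervals. Points are coloured by call, and the dotted line is the median of all tested genes (-0.15); MMP2 lies farthest to the right at 5.63, MMP9 farthest to the left at -6.49, and 6 of the 7 mitochondrial members lie between -0.85 and -0.25.

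The gelatinases, which cut denatured collagen and the type IV collagen of basement membranes, went in opposite directions. MMP2 (gelatinase A) had 2550, 2445 and 2634 FPKM in DPC replicates 1 to 3, against 47.7, 46.8 and 56.97 FPKM in HMC replicates 1 to 3. The groups did not overlap, and the mean was 50.4 times as high in DPC (log2 difference 5.63, SE 0.07, adjusted p = 1.61e-10). MMP9 (gelatinase B) had 3.55, 2.36 and 3.39 FPKM in DPC, against 436, 387 and 289 FPKM in HMC. Here the mean was 120 times as high in HMC (log2 difference -6.49, SE 0.17, adjusted p = 5.37e-09), and HMC replicate 3 was the lowest of its group.

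The 4 membrane-anchored MMPs among the members were higher in DPC. MMP14, a transmembrane collagenase that also activates the MMP2 precursor at the cell surface, had 442, 406 and 454 FPKM in DPC and 134, 137 and 133 FPKM in HMC. It was thus abundant in both cell types, with a log2 difference of 1.68 (SE 0.05, adjusted p = 9.01e-09). MMP23B, an MMP with an N-terminal membrane anchor, averaged 48.0 ± 2.46 FPKM in DPC, against 2.50 ± 0.723 FPKM in HMC (n = 3 each, SD; log2 difference 3.82). Its lowest DPC value of 45.2 FPKM lay above its highest HMC value of 3.33 FPKM.
Both MMPs held by a lipid anchor were low. MMP17 (MT4MMP) had 3.43, 2.48 and 3.54 FPKM in DPC, against 0.122, 0.0403 and 0.199 FPKM in HMC (log2 difference 1.88). The HMC values rest on 9 recovered reads in all, and the ratio of 26.1 in favour of DPC had a counting interval of 13.5 to 57.8. MMP25, listed under the older symbol MMP20, averaged 0.915 ± 0.131 FPKM in DPC, against 0.269 ± 0.0355 FPKM in HMC (n = 3 each, SD; log2 difference 0.59, adjusted p = 5.02e-04).

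The secreted collagenases and related enzymes were higher in HMC. MMP1 (CLG), which cuts fibrillar collagen, had 0.134, 0.137 and 0.247 FPKM in DPC, against 10.5, 14.9 and 12.9 FPKM in HMC (log2 difference -3.54, adjusted p = 3.52e-08). MMP12, an elastase first described in macrophages, was listed at 0 in all 3 DPC libraries and had 5.31, 6.31 and 4.48 FPKM in HMC. Against a floor of 3 reads per library it was at least 57.2-fold lower in DPC. MMP13, another collagenase, was also listed at 0 in all DPC libraries and had 4.87, 4.18 and 2.76 FPKM in HMC, at least 39.5-fold lower in DPC by the same floor.
MMP3, a stromelysin that cuts many matrix proteins, had 0.142, 0.435 and 0.286 FPKM in DPC, against 1.06, 0.547 and 1.26 FPKM in HMC. Its groups did not overlap, but HMC replicate 2 came near the highest DPC value (log2 difference -0.59, SE 0.16, adjusted p = 0.00934). DPC gave 18 recovered reads of it and HMC 63, and the ratio of 3.34 in favour of HMC had a counting interval of 1.95 to 5.99. MMP20, the enamel MMP, and MMP27 stayed at or below 0.0715 FPKM in every library and were not tested. In RefSeq's yak gene table, of the assembly Bosgru_T2T1.0, MMP13 and MMP12 are neighbouring protein-coding genes. MMP27, MMP20 and MMP7 are another run of neighbours on the same chromosome. MMP1, MMP3, MMP8 and MMP10 were not found there by symbol, so their places relative to these runs are not known here.

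Among the MMP members, ordered by level within DPC, MMP2 was followed by MMP14 and MMP23B, then by MMP17 and MMP9, whose values overlapped, and by MMP25. Within HMC the order of the members was MMP9, MMP14, MMP2 and MMP1, then MMP12, MMP13 and MMP23B, whose neighbours overlapped, and MMP3. Of the 10 tested MMP members 5 were higher in DPC, beside 29.7% of all tested genes, and 5 higher in HMC, beside 46.2%.

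**Figure D2:**
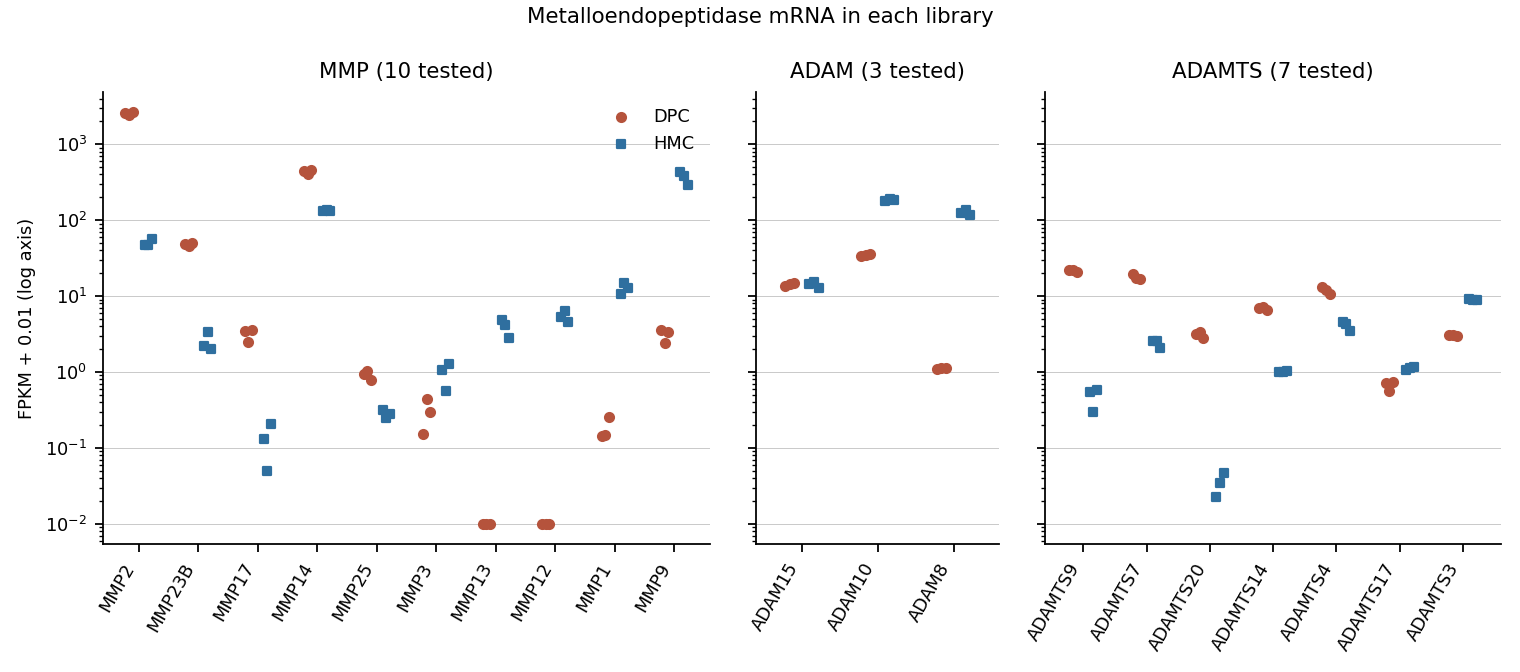
FPKM + 0.01 on a log axis in each library for the tested MMP, ADAM and ADAMTS members, with the 3 DPC libraries as circles to the left of the 3 HMC libraries as squares. MMP2 stands at 2445 FPKM or more in DPC and MMP9 at 289 FPKM or more in HMC, while the ADAM15 means are 14.2 FPKM in DPC, against 14.1 FPKM in HMC.

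Markers of leukocytes were measured beside these MMPs, since MMP9 and MMP12 are also made by macrophages. Of 6 listed markers 3 were matched. PTPRC, CSF1R and LYZ were not matched by symbol, so their levels are not known here. AIF1 had 0.0764, 0 and 0.0770 FPKM in DPC, against 6.77, 7.87 and 4.81 FPKM in HMC. CD14 averaged 2.47 ± 0.412 FPKM in DPC, against 10.1 ± 1.90 FPKM in HMC (n = 3 each, SD), and both AIF1 and CD14 were called higher in HMC. CD68 averaged 1.29 ± 0.198 FPKM in DPC, against 1.14 ± 0.308 FPKM in HMC, and did not pass the test (adjusted p = 0.469). The summed level of the list was 3.59 to 4.24 FPKM in DPC and 14.3 to 20.0 FPKM in HMC, lowest in HMC replicate 3. The part of such cells in the MMP levels was not tested.
Mesenchymal markers were also present at a low level in HMC, beside MMP2, whose HMC mean was 1.98% of its DPC mean. The HMC means of the 8 tested markers of the dermal papilla and fibroblast list were 0.764% to 6.97% of their DPC means, with COL1A1 at 1.34% and DCN at 1.88%. Their summed level in HMC was 522, 504 and 600 FPKM in replicates 1 to 3. HMC replicate 3 was the highest HMC library for 6 of the 8 and for MMP2. None of the 8 was at 0 in HMC, and their part in the HMC level of MMP2 was not tested.

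Among the ADAMs, the sheddases ADAM10 and ADAM8 were higher in HMC and ADAM15 did not pass the test. ADAM10 (MADM), which releases Notch, cadherins and growth factor precursors from the membrane, had 33.9, 34.4 and 35.3 FPKM in DPC, against 181, 190 and 183 FPKM in HMC (log2 difference -2.38, SE 0.04, adjusted p = 6.02e-10). ADAM8 (MS2), which is best known from leukocytes and tumour cells, had 1.07, 1.12 and 1.13 FPKM in DPC, against 122.9, 135 and 117 FPKM in HMC. That is 113 times as high in HMC (log2 difference -5.90, adjusted p = 9.92e-11), with a coefficient of variation of 2.83% in DPC and 7.17% in HMC.
ADAM15 (MDC15), a transmembrane ADAM that binds integrins, averaged 14.2 ± 0.726 FPKM in DPC, against 14.1 ± 1.22 FPKM in HMC (n = 3 each, SD). Its log2 difference of 0.01 had a 95% interval of -0.17 to 0.19 (adjusted p = 0.91), and after quantile normalization it was called higher in DPC with a log2 difference of 0.21. The other 5 ADAM members were not tested. ADAM11 (MDC), which lacks protease activity in mammals, averaged 0.120 FPKM in DPC, against 0.474 FPKM in HMC. The 2 Adam1 genes, between which reads may be shared, averaged 0.162 and 0.116 FPKM in DPC and 0.187 and 0.211 FPKM in HMC. ADAM21 and ADAM23 did not exceed 0.0826 FPKM in any library.

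The ADAMTS members were mostly higher in DPC, with 5 of 7 tested ones called in that direction, beside 29.7% of all tested genes. The other 2 were called higher in HMC, beside 46.2%. ADAMTS9 (KIAA1312), which cuts versican and aggrecan, had 21.7, 22.1 and 20.96 FPKM in DPC, against 0.538, 0.290 and 0.562 FPKM in HMC (log2 difference 3.95, SE 0.09, adjusted p = 3.2e-09). ADAMTS20, a relative of ADAMTS9 that is needed for melanoblast survival in mouse skin, had 3.15, 3.37 and 2.76 FPKM in DPC, against 0.0126, 0.0249 and 0.0370 FPKM in HMC. Only 6 reads in all were recovered from HMC for it, and the ratio of 124 in favour of DPC had a counting interval of 56.8 to 340.
ADAMTS7, which cuts the cartilage protein COMP, averaged 18.1 ± 1.48 FPKM in DPC, against 2.36 ± 0.281 FPKM in HMC (n = 3 each, SD; log2 difference 2.51). ADAMTS4, an aggrecanase, had 13.2, 11.8 and 10.8 FPKM in DPC, against 4.54, 4.30 and 3.46 FPKM in HMC (log2 difference 1.35). In both genes DPC replicate 1 was the highest and HMC replicate 3 the lowest of all libraries.

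The 2 procollagen N-proteinases among the members went opposite ways. ADAMTS14, which removes the N-terminal propeptide of fibrillar procollagen, had 7.06, 7.13 and 6.48 FPKM in DPC, against 1.00, 0.989 and 1.01 FPKM in HMC (log2 difference 1.98, SE 0.08, adjusted p = 5.87e-08). ADAMTS3 (KIAA0366), a near relative that also activates the lymphatic growth factor VEGFC, had 3.04, 3.09 and 3.00 FPKM in DPC, against 9.18, 8.94 and 8.98 FPKM in HMC (log2 difference -1.31, SE 0.06, adjusted p = 3.07e-07). Neither gene's groups overlapped. ADAMTS17 averaged 0.663 ± 0.101 FPKM in DPC, against 1.11 ± 0.0437 FPKM in HMC (n = 3 each, SD; log2 difference -0.34, adjusted p = 0.0077), and after quantile normalization its adjusted p was 0.0563. ADAMTS16 (KIAA2029), ADAMTS18 (ADAMTS21) and ADAMTS19 stayed at or below 0.0848 FPKM in every library.
Among the members, the ADAMTS order within DPC was ADAMTS9, ADAMTS7, ADAMTS4 and ADAMTS14, then ADAMTS20 and ADAMTS3, whose values overlapped, and ADAMTS17. Within HMC it was ADAMTS3, ADAMTS4, ADAMTS7, ADAMTS17 and ADAMTS14, with no overlap between neighbours.

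The summed level of the 61 members was 3744, 3585 and 3842 FPKM in DPC replicates 1 to 3, against 1715, 1683 and 1563 FPKM in HMC. It made up 0.674 ± 0.0198% of all FPKM in DPC and 0.255 ± 0.0118% in HMC (SD, n = 3 each). The exact two-sided permutation p was 0.1, the smallest that 3 against 3 allows, and the same holds for each sum, share and ratio of libraries in this paragraph and the next. MMP2 alone made up 68.3 ± 0.240% of the member sum in DPC and 3.07 ± 0.5001% in HMC. Without MMP2 the order turned round, with 1181 ± 36.0 FPKM in DPC, against 1603 ± 86.0 FPKM in HMC. The MMP members summed to 3033 ± 122.9 FPKM in DPC, against 582 ± 71.5 FPKM in HMC, and MMP9 was 0.102 ± 0.0182% of that sum in DPC and 63.3 ± 5.36% in HMC. Not in that sum are MMPs that are not members, such as MMP7 and MMP15 (64.0 and 88.3 FPKM in HMC) and MMP19 (16.1 FPKM in DPC). The 8 ADAM members summed to 50.3 ± 1.60 FPKM in DPC, against 325 ± 14.5 FPKM in HMC. With ADAM9, ADAM17 and ADAM19, which are not members, the sum was 264 ± 2.81 FPKM in DPC, against 602 ± 10.8 FPKM in HMC. The ADAMTS members summed to 65.4 ± 3.48 FPKM in DPC, against 18.1 ± 0.819 FPKM in HMC. ADAMTS9 was 33.1% of this member sum in DPC and 2.57% in HMC, and ADAMTS3 was 4.66% in DPC and 49.97% in HMC. The sum leaves out ADAMTS1 (KIAA1346), not a member, which averaged 46.5 FPKM in DPC, against 44.4 FPKM in HMC, and was not called. It also leaves out ADAMTS2, at 103 FPKM in DPC, against 1.97 FPKM in HMC, and ADAMTS5 and ADAMTS10, both called higher in DPC. ADAMTS12, left out as well, was higher in HMC, at 0.0378 FPKM in DPC, against 7.71 FPKM in HMC. In HMC the ADAMTS1 mean alone exceeded the member sum.

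Levels per library of enzymes and the genes that act on them also differed in proportion. MMP2, MMP14 and TIMP2 form a complex at the cell surface in which MMP14 activates the MMP2 precursor. MMP2 was 5.87 ± 0.142 times the level of MMP14 in DPC and 0.375 ± 0.0461 times in HMC. MMP14 was 0.561 ± 0.0527 times the level of TIMP2 in DPC and 1.42 ± 0.0904 times in HMC. The MMP members summed to 1.15 ± 0.0790 times the sum of TIMP1 to TIMP4 in DPC and 0.398 ± 0.0415 times in HMC. MMPs that are not members, such as MMP7, MMP15 and MMP19, are missing from this ratio too. ADAM10 was 0.842 ± 0.0478 times the level of ADAM17, the main sheddase of TNF and EGF receptor ligands, in DPC and 3.52 ± 0.0706 times in HMC.

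**Figure D3:**
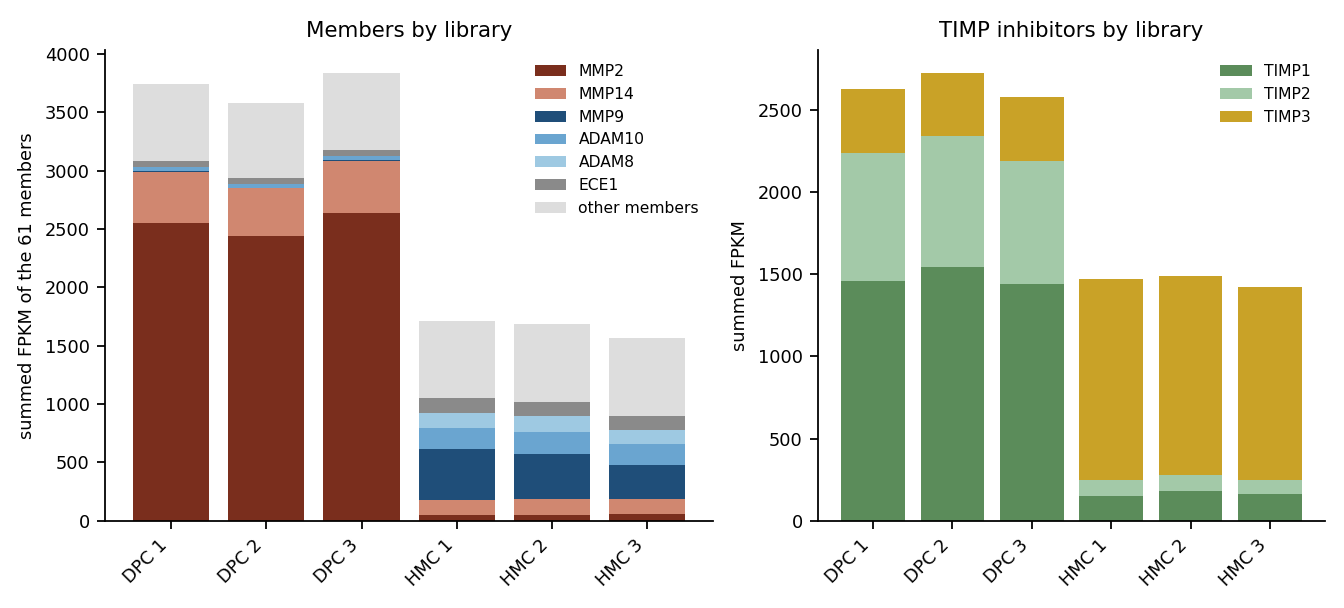
Stacked bars of summed FPKM in each library, DPC replicates to the left of HMC replicates. The left panel shows the 61 members, with MMP2 at 68.3% of the sum in DPC and MMP9 as the tallest named part in HMC, and the right panel shows TIMP1, TIMP2 and TIMP3 (TIMP4, at most 0.711 FPKM, is not drawn), with TIMP1 tallest in DPC and TIMP3 in HMC.

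The neprilysin family, membrane enzymes that process or inactivate signalling peptides, had 3 tested members. ECE1, which makes active endothelin, had 50.2, 48.1 and 52.5 FPKM in DPC, against 129, 126 and 118 FPKM in HMC (log2 difference -1.29, SE 0.05, adjusted p = 8.54e-08). MME (neprilysin) had 2.31, 2.58 and 3.14 FPKM in DPC, against 12.3, 11.9 and 8.73 FPKM in HMC (log2 difference -1.70). ECE2 (UNQ403/PRO740), the relative of ECE1 that works inside acidic vesicles, went the other way, at 7.83 ± 0.253 FPKM in DPC, against 3.07 ± 0.196 FPKM in HMC (n = 3 each, SD; log2 difference 1.12). PHEX (PEX), known for phosphate balance in bone, averaged 0.00919 FPKM in DPC, against 0.266 FPKM in HMC, and it was not tested, nor was MMEL1 (MELL1), which had reads in 1 HMC library only.
Of the 3 astacins, TLL2 (KIAA0932), a relative of the procollagen C-proteinase BMP1, was tested and had 0.0242, 0.0495 and 0.0244 FPKM in DPC, against 1.61, 1.66 and 1.62 FPKM in HMC (log2 difference -1.35). Only 4 reads in all were recovered from DPC for it, and the ratio of 49.9 in favour of HMC had a counting interval of 19.2 to 185. TLL1 and MEP1B stayed at or below 0.0688 FPKM. The pappalysins, which cut IGF-binding proteins, were not tested, with PAPPA at 0.439 ± 0.0904 FPKM in DPC, against 0.301 ± 0.0930 FPKM in HMC, and PAPPA2 (PLAC3) at or below 0.0118 FPKM.

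The members grouped as mitochondrial were mostly higher in HMC by less than 2-fold on the log2(FPKM + 1) scale, with 6 of 7 called in that direction, beside 46.2% of all tested genes. MIPEP and PITRM1 also work in mitochondria but are grouped with the oligopeptidases below. MIPEP was not called (log2 difference 0.11) and PITRM1 was called higher in HMC (-0.23). ATP23 (KUB3), which processes a subunit of the ATP synthase, was the exception and had 56.7, 49.5 and 58.6 FPKM in DPC, against 17.9, 18.7 and 20.0 FPKM in HMC (log2 difference 1.49, SE 0.07, adjusted p = 3.47e-07). The inner membrane proteases AFG3L2, OMA1 and YME1L1 (UNQ1868/PRO4304), which control protein quality and the shape of mitochondria, had log2 differences of -0.85, -0.82 and -0.29. AFG3L2 averaged 25.3 ± 0.999 FPKM in DPC, against 46.6 ± 3.38 FPKM in HMC, and OMA1 2.50 ± 0.330 FPKM in DPC, against 5.20 ± 0.653 FPKM in HMC. PMPCA and PMPCB, the subunits of the peptidase that removes import signals, had -0.55 and -0.39, and AFG3L1 had -0.25. YME1L1 was the most abundant of them, at 88.8 ± 2.60 FPKM in DPC, against 109 ± 8.60 FPKM in HMC (n = 3 each, SD), and PMPCA averaged 45.9 ± 1.74 FPKM in DPC, against 67.7 ± 2.12 FPKM in HMC. The small differences sit beside the median of -0.15 of all tested genes. After rescaling by median-of-ratios size factors YME1L1 and AFG3L1 were no longer called (adjusted p = 0.0749 and 0.178), and after quantile normalization the log2 difference of YME1L1 was 0.03 and those of PMPCB and AFG3L1 were not called.

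Of the 5 members grouped as oligopeptidases, a name for enzymes that cut short peptides, 1 was called higher in DPC and 2 higher in HMC. That is 60%, beside 75.9% of all tested genes. Of the 4 enzymes of other membranes 1 was called, higher in HMC. IDE, which degrades insulin, averaged 10.9 ± 0.839 FPKM in DPC, against 22.1 ± 0.815 FPKM in HMC (n = 3 each, SD; log2 difference -0.96). PITRM1, which degrades cleaved import signals in mitochondria, had a log2 difference of -0.23 (adjusted p = 0.0145). It was no longer called after median-of-ratios rescaling (log2 difference -0.08, adjusted p = 0.283) or after quantile normalization (0.01, adjusted p = 0.896). THOP1, which degrades short signalling peptides, averaged 12.6 ± 1.19 FPKM in DPC, against 10.4 ± 0.947 FPKM in HMC. It had a log2 difference of 0.25 (adjusted p = 0.0323), and was not called without DPC replicate 3 (adjusted p = 0.109), without HMC replicate 1 (0.0996) or without HMC replicate 2 (0.0952). NRDC (NRD1) and MIPEP did not pass the test, with 95% intervals of the log2 difference of -0.28 to 0.03 and -0.10 to 0.32. NRDC averaged 25.8 ± 0.869 FPKM in DPC, against 28.2 ± 2.27 FPKM in HMC, and MIPEP 12.0 ± 1.44 FPKM in DPC, against 11.0 ± 0.623 FPKM in HMC.
LMLN, a relative of the surface protease of Leishmania, was among the abundant members in both cell types, at 78.5 ± 2.61 FPKM in DPC, against 108 ± 4.41 FPKM in HMC (log2 difference -0.45, adjusted p = 3.73e-05). MBTPS2, which releases membrane-bound transcription factors, ZMPSTE24 (FACE1), which matures lamin A, and TRABD2B (Gm12824), which cuts Wnt proteins, did not pass the test. Their log2 differences had 95% intervals of -0.16 to 0.32, -0.38 to 0.33 and -0.33 to 0.08. MBTPS2 averaged 7.03 ± 1.02 FPKM in DPC, against 6.55 ± 0.416 FPKM in HMC. TRABD2B averaged 0.458 ± 0.0405 FPKM in DPC, against 0.590 ± 0.0770 FPKM in HMC, and its groups did not overlap. ZMPSTE24 had 6.63, 6.85 and 10.4 FPKM in DPC, against 7.16, 8.16 and 8.57 FPKM in HMC, so DPC replicate 3 stood above all other libraries.

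The 5 remaining members carry the annotation but are not known, or not best known, as zinc endopeptidases. MBTPS1, a serine protease that acts before MBTPS2, averaged 36.4 ± 0.460 FPKM in DPC, against 25.7 ± 1.83 FPKM in HMC (log2 difference 0.49). YBEY (C21orf57), an endoribonuclease of ribosomal RNA, averaged 26.03 ± 1.24 FPKM in DPC, against 16.1 ± 1.05 FPKM in HMC (log2 difference 0.66). OSGEP (GCP1), which modifies transfer RNA, had a log2 difference of 0.41 (adjusted p = 0.00883), so these 3 were called higher in DPC.
CLCA2 (CACC3), a self-cleaving regulator of chloride conductance that is known from stratified epithelia, had 0.0726, 0.148 and 0.0732 FPKM in DPC, against 10.8, 10.3 and 8.28 FPKM in HMC (log2 difference -3.29). Its ratio of 99.9 in favour of HMC had a counting interval of 57.02 to 194. TMPRSS6 (UNQ354/PRO618), a serine protease known from iron balance in the liver, was listed at 0 in all DPC libraries and had 0.909, 0.812 and 0.529 FPKM in HMC. It was at least 11.7-fold lower in DPC against 3 reads per library and fell under the filter of the test.

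The HMC libraries were not alike for the members that were higher in HMC. HMC replicate 3 was the lowest HMC library for 7 of the 11 members called at least 2-fold higher in HMC, and the highest for 0. The same order among all genes called at least 2-fold higher in HMC was not counted. Over all 44 tested members HMC replicate 3 was the lowest of its group in 45.5%, beside 34.3% of all tested genes. The median coefficient of variation of the tested members was 6.76% in DPC and 8.36% in HMC, beside 6.64% and 7.16% for all tested genes in DPC and HMC. Without HMC replicate 3, 38 members were called, as with it.

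**Figure D4:**
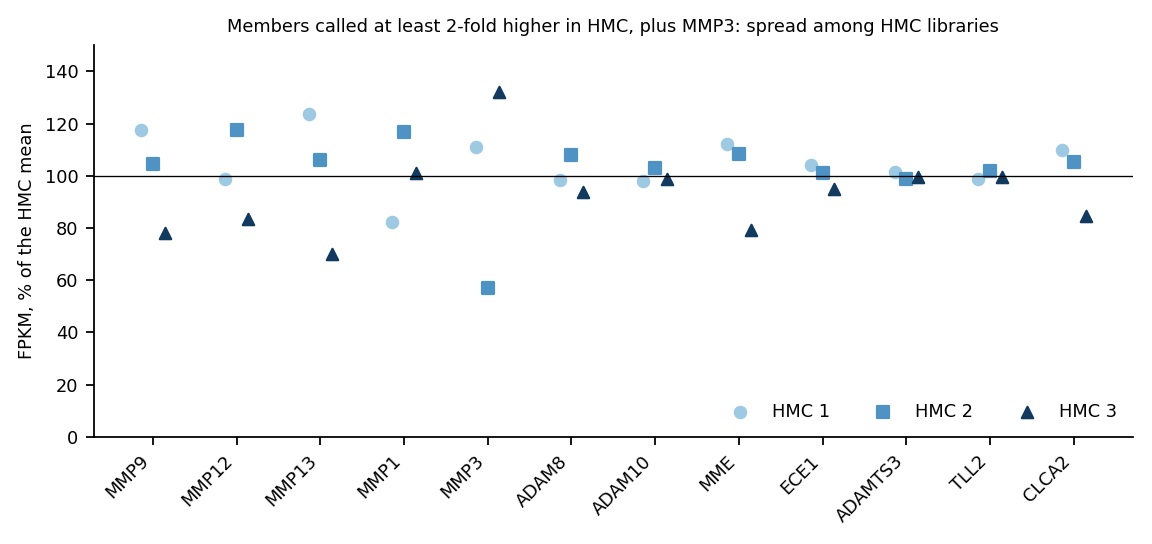
FPKM in each HMC library as a percentage of the HMC mean, for the members called at least 2-fold higher in HMC and for MMP3. HMC replicate 3 is the lowest of the 3 libraries for MMP9, MMP12, MMP13, MME and CLCA2, while ADAM10 and ADAMTS3 lie close to 100% in every library.

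The tested inhibitors of these enzymes were higher in DPC, apart from TIMP3. Of 11 listed genes 8 were matched and 6 tested, with 5 called toward DPC and 1 toward HMC and a median log2 difference of 3.53 beside -0.15 for all tested genes. Of all tested genes 29.7% were called toward DPC and 46.2% toward HMC. TIMP1, the main inhibitor of MMP9, had 1458, 1542 and 1443 FPKM in DPC, against 150, 179 and 161 FPKM in HMC (log2 difference 3.18). TIMP2 averaged 775 ± 29.6 FPKM in DPC, against 95.3 ± 7.25 FPKM in HMC (n = 3 each, SD; log2 difference 3.01). TIMP3, which binds to the matrix and also inhibits ADAM17 and several ADAMTS enzymes, had 394, 383 and 391 FPKM in DPC, against 1225, 1212 and 1171 FPKM in HMC (log2 difference -1.63). TIMP1 made up 55.97% of the summed TIMP level in DPC and 11.2% in HMC, and TIMP3 14.7% in DPC and 82.3% in HMC. The membrane-anchored MMP inhibitor RECK averaged 16.4 ± 1.06 FPKM in DPC, against 0.184 ± 0.0362 FPKM in HMC (log2 difference 3.88). The proteoglycan SPOCK1 (SPOCK) and the plasmin inhibitor TFPI2 had log2 differences of 5.36 and 3.96.

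Of 17 listed activators and their regulators 16 were matched and 13 tested, with 4 called higher in DPC and 9 higher in HMC (median log2 difference -1.35). Over all tested genes the shares called were 29.7% toward DPC and 46.2% toward HMC. The membrane serine proteases ST14 (matriptase, in the table PRSS14) and PRSS8 averaged 0.341 ± 0.104 and 0.178 ± 0.108 FPKM in DPC, against 340 ± 8.12 and 62.6 ± 2.33 FPKM in HMC (n = 3 each, SD). PLAU, the urokinase that makes plasmin, had 43.0, 38.9 and 35.8 FPKM in DPC, against 875, 827 and 768 FPKM in HMC (log2 difference -4.36). The 4 convertases of the list, which remove the inhibitory domain of precursors, went both ways. PCSK6 (Pace4), with a DPC mean of 7.71 FPKM, and PCSK5 (PC5), with one of 3.22 FPKM, were called toward DPC (log2 differences 2.88 and 1.85). FURIN (FUR) and PCSK7 (LPC), the more abundant pair, were higher in HMC. FURIN averaged 35.5 FPKM in DPC, against 92.0 FPKM in HMC (log2 difference -1.35, adjusted p = 3.97e-08). PCSK7 averaged 22.5 FPKM in DPC, against 27.1 FPKM in HMC (log2 difference -0.26), and was not called after median-of-ratios rescaling (adjusted p = 0.137) or quantile normalization (adjusted p = 0.718). SERPINE2 (PI7), which inhibits plasminogen activators, also had a log2 difference toward DPC, of 2.37.

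Of 14 listed partners that mature or move ADAM10 and ADAM17, 13 were matched and 12 tested, with 4 called higher in DPC, 5 higher in HMC and 3 not called. The share called was 75%, near the 75.9% of all tested genes, and the median log2 difference of -0.14 was near their -0.15. The tetraspanins that escort ADAM10 differed in direction. TSPAN14 (TM4SF14) and TSPAN15 averaged 6.75 ± 0.468 and 0.596 ± 0.0830 FPKM in DPC, against 24.6 ± 1.33 and 3.89 ± 0.312 FPKM in HMC (n = 3 each, SD). TSPAN5 averaged 8.60 ± 0.364 FPKM in DPC, against 3.19 ± 0.171 FPKM in HMC (log2 difference 1.196). RHBDF2 (RHBDL6), which carries ADAM17 to the surface, averaged 3.30 ± 0.519 FPKM in DPC, against 22.6 ± 0.498 FPKM in HMC (log2 difference -2.46). PACS2 (KIAA0602) and PSEN2 had log2 differences toward DPC of 0.91 and 0.74. SCAMP3, the most abundant of the list, averaged 91.2 ± 10.0 FPKM in DPC, against 100.2 ± 12.4 FPKM in HMC, and did not pass the test (adjusted p = 0.263).

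The surface proteins that ADAM10 and ADAM17 release were mostly higher in HMC. Of 30 listed genes 28 were matched and 27 tested, with 3 called higher in DPC and 23 higher in HMC (median log2 difference -2.11). The shares over all tested genes were 29.7% toward DPC and 46.2% toward HMC. The EGF receptor ligand AREG had 0.326, 0.333 and 0.329 FPKM in DPC, against 215, 231 and 243 FPKM in HMC (log2 difference -7.44). HBEGF (DTR), another ligand of that receptor, averaged 0.759 ± 0.253 FPKM in DPC, against 79.9 ± 3.801 FPKM in HMC (n = 3 each, SD; log2 difference -5.53). The epithelial cadherin CDH1, which is also in the list of epithelial markers, had a log2 difference of -7.16, and the neural cadherin CDH2 had 3.96. NOTCH2 and the Notch ligand JAG1 (JAGL1) were the other 2 genes higher in DPC, with log2 differences of 0.43 and 0.20. APP was the most abundant of the list, at 249 ± 2.24 FPKM in DPC, against 357 ± 20.96 FPKM in HMC.

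The matrix proteins that these enzymes cut, listed with helpers of procollagen processing and other substrates such as IGFBP4 and IGFBP5, went both ways. Of 30 listed genes 26 were matched and 22 tested, with 15 called higher in DPC and 7 higher in HMC (median log2 difference 4.62). Over all tested genes the shares called were 29.7% toward DPC and 46.2% toward HMC. The fibrillar collagen genes COL1A1 and COL1A2 had log2 differences of 6.20 and 5.76, and the proteoglycan decorin (DCN) had 5.55. COL1A2 was the most abundant of the list, at 5051 ± 202 FPKM in DPC, against 92.1 ± 7.37 FPKM in HMC (n = 3 each, SD). The epithelial laminin chains LAMB3 (LAMNB1) and LAMA3 (LAMNA) went the other way, with log2 differences of -6.56 and -5.74. LAMB3 averaged 2.06 ± 0.247 FPKM in DPC, against 287 ± 19.6 FPKM in HMC. The fibrillar collagen gene COL2A1 was also higher in HMC, at 0.0280 FPKM in DPC, against 1.89 FPKM in HMC (log2 difference -1.49). FN1 averaged 1275 FPKM in DPC, against 1571 FPKM in HMC (log2 difference -0.30), and was not called after quantile normalization. COL1A1, COL3A1, DCN and VCAN also stand in the list of mesenchymal markers.

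Of the genes listed as related metalloproteases that the table does not annotate with the activity term, 15 were matched. They include STAMBP, BRCC3, MYSM1 and EIF3F, proteins with a JAMM or MPN domain that belong to none of the families above, of which 2 were called higher in HMC and 2 were not called. Of the 11 others 9 were tested, with 2 called higher in DPC and 6 higher in HMC (median log2 difference -0.42). The shares called over all tested genes were 29.7% toward DPC and 46.2% toward HMC. MMP7 (MPSL1), the epithelial matrilysin, had 0, 0.0773 and 0.0763 FPKM in DPC, against 71.5, 63.8 and 56.6 FPKM in HMC (log2 difference -5.95). MMP15, a transmembrane relative of MMP14, averaged 2.31 ± 0.537 FPKM in DPC, against 88.3 ± 2.98 FPKM in HMC (log2 difference -4.77). MMP16, another transmembrane MMP, averaged 1.38 ± 0.0304 FPKM in DPC and was listed at 0 in all 3 HMC libraries. MMP19 (MMP18) averaged 16.1 ± 1.58 FPKM in DPC, against 0.645 ± 0.231 FPKM in HMC (log2 difference 3.38). ADAM9 (KIAA0021) was the most abundant of them, at 95.2 ± 1.96 FPKM in DPC, against 218 ± 3.71 FPKM in HMC. ADAM17 (CSVP) had a log2 difference of -0.35, which was -0.06 and not called after quantile normalization.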

How the data were processed

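The authors' deposited table holds FPKM for 15646 genes in 6 libraries. Stranded mRNA libraries were made, per the labels' protocols, and Trimmomatic, HISAT2 2.2.1.0 and DESeq 1.20.0 are named without roles, per the submitters' processing notes. For the counter, genome build and annotation, nothing is stated in the labels or headers used here. FPKM steps gave whole reads for 100% of genes (relative tolerance 1e-05), known only up to a factor per gene, so read sums are lower limits of the depth. Intervals and floors from reads cover counting error only.

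limma 3.58.1 in R 4.3.3 was run on log2(FPKM + 1), which understates the change of low genes, with a trended prior variance, over genes that averaged 0.5 FPKM or more, two-sided, with Benjamini-Hochberg adjustment and a threshold of 0.05. Sums and figures used Python 3.11.15, numpy 2.4.6, pandas 2.3.3 and matplotlib 3.10.9. Ratios with counting intervals used reads summed over each group, and the intervals are 95% exact binomial ones. The procedure was tested on simulated data.

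Every MMP, ADAM and ADAMTS member is named. Of the other members the rule names the 4 of largest difference in each direction and the 4 of highest mean, and of each list the 3 of largest difference in each direction and the most abundant. A few list genes picked by this rule are not reported here. Further members, TIMP2, ADAM17, ADAMTS1, COL2A1, FN1, FURIN, PCSK7 and the JAMM or MPN proteins were named after their values were seen. The levels or directions of ADAMTS2, ADAMTS5, ADAMTS10, ADAMTS12 and ADAM19 were also added then. Members and lists were chosen with earlier results of these data known. Older symbols stand in parentheses: 26 members were listed under one, and of 217 list names 106 matched directly, 70 through an older symbol read against the table's annotation and 41 not at all. Alternatives were a pseudocount of 0.1, no filter, a filter at 5 FPKM, median-of-ratios rescaling, quantile normalization, no trend, a replicate block and each library left out. Voom on recovered reads was added after seeing the data.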

Additional observations from a re-analysis of the deposited data

How the results depend on the processing

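Of the 44 tested members, 38 were called with the values as deposited, with a pseudocount of 0.1, without a trend in the prior variance, with the replicate number as a block and by voom on recovered reads (chosen after seeing the data). The count was 41 of 61 without a filter, 27 of 32 tested with a filter at 5 FPKM, 36 after median-of-ratios rescaling, 35 after quantile normalization and 37 to 38 with a library left out. The filter at 5 FPKM left 5 MMP and 4 ADAMTS members called, against 10 and 7, since it tests fewer genes. The members' median log2 difference of -0.18 became -0.25 with a pseudocount of 0.1, -0.031 without a filter, -0.073 with a filter at 5 FPKM, -0.076 with median-of-ratios factors, 0.019 with quantile normalization and -0.25 by voom, and it was -0.21 to -0.17 with a library left out. The all-gene median of -0.15 was -0.02 with median-of-ratios factors and 0.04 with quantile normalization, and the share of all calls that were higher in DPC was 39.1% as deposited, 48.8% and 53.6%. Members split 16 higher in DPC and 22 higher in HMC as deposited, 17 and 19 with median-of-ratios factors, and 18 and 17 with quantile normalization. Quantile normalization turned the sign of PITRM1 (0.010), YME1L1 (0.027), TSPAN17 (0.22) and TNFRSF1A (0.080), and MIPEP was called higher in DPC with quantile normalization (0.29) and with median-of-ratios factors (0.25). The cause of these changes was not tested. The number of all genes called was 8560 to 8757 with a library left out and 8924 with the replicate block, which changed no member call. The labels do not say whether the numbers pair the samples. Deviations of same-numbered libraries correlated at 0.023, 0.034 and 0.006, and not every library correlated best with its own number. With 3 libraries per group such correlations cannot decide whether samples share an animal or a batch. The filter left out 17 members, whose single values did not exceed 0.909 FPKM, and without it TMPRSS6, ADAM11 and PHEX were called higher in HMC. Depth limits the rarest, such as MMP20, with 0 recovered reads in DPC and 1 in HMC.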

Other observations

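Many MMP genes are known targets of AP-1 and ETS transcription factors, and a list of these factors, which also holds the Runt-domain factors RUNX1 and RUNX2, was read beside the enzymes. Of 15 matched AP-1 and ETS genes 13 were tested, with 3 called higher in DPC, 8 higher in HMC and 2 not called, and a median log2 difference of -0.77 beside -0.15 for all tested genes. Of all tested genes 29.7% were called toward DPC and 46.2% toward HMC. The epithelial ETS factor ELF3 (Ert) averaged 0.391 ± 0.123 FPKM in DPC, against 48.7 ± 1.76 FPKM in HMC (n = 3 each, SD; log2 difference -5.16, adjusted p by limma = 4.07e-10). ETV4 (E1AF), another ETS factor, averaged 3.62 ± 0.858 FPKM in DPC, against 24.4 ± 0.927 FPKM in HMC (log2 difference -2.47). The AP-1 subunit FOS had 11.6, 14.3 and 13.6 FPKM in DPC, against 70.6, 58.4 and 61.5 FPKM in HMC (log2 difference -2.19). JUNB, the most abundant of the list, averaged 89.0 ± 4.79 FPKM in DPC, against 222 ± 5.62 FPKM in HMC. Higher in DPC were ETV1 (18.2 ± 0.530 FPKM in DPC, against 1.83 ± 0.481 FPKM in HMC, log2 difference 2.78), ETV5 with a log2 difference of 0.72 and FOSL2 (FRA2) with 0.51. Of the Runt-domain factors, RUNX2 (OSF2), known from osteoblasts, had a log2 difference of 1.91 and RUNX1 (AML1) of -0.31, which was -0.11 and not called after quantile normalization. FOSL2 and RUNX1 were named after their values were seen.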
